A study of Mus musculus with 81 samples.

Results

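TCRBV19 is the mouse T-cell receptor beta (TCRβ) variable segment formerly called Vβ6 (gene Trbv19, RefSeq synonyms Tcrb-V6 and Gm16780). It was followed through 81 TCRβ CDR3 libraries from 27 mice. Its rearrangements were the in-frame rows assigned to TCRBV19, and all of them carried the allele name TCRBV19-01*01. Summed over libraries they came to 28623 of 379294 in-frame rearrangements and 57623 of 1077754 in-frame templates, a template being 1 counted molecule of rearranged genomic DNA. A further 13698 TCRBV19 rearrangements were out of frame. Shares below are percentages of in-frame templates without 2 CDR3s, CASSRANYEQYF of the transferred OT-1 cells and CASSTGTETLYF of the lymphoma, both of which belong to other V segments. That denominator held 613408 templates. The 36 TCRBV19 rows that carried those 2 CDR3s, with 50 templates, were left out as well.

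All mice were CD45.1 Pep Boy animals (B6.SJL-Ptprc<a> Pepc<b>/BoyJ), and every mouse received OT-1 cells, CD8 T cells with a transgenic receptor for an ovalbumin (OVA) peptide. Every mouse was given EG7.OVA, an OVA-expressing derivative of the EL4 mouse lymphoma, and the naive group received it on day 66. In the treatment experiment, tumor-bearing mice with 1e6 OT-1 cells received, on days 0 and 3, either 1e9 mRBC-CTRL (control group) or mRBC-OVA-4-1BBL-IL-12, mouse red blood cells that carry OVA, 4-1BBL and IL-12, in doses of 2.5e8 or 1e9 cells (2.5e8 and 1e9 groups). Blood was taken on day 0, after the OT-1 transfer, and on day 7, and tumors on day 7, from 5 mice a group. Day 7 blood of control mouse 1 and day 0 blood of 1e9 mouse 1 were not analysed here. In the rechallenge experiment, 7 mice cured by the lower of these doses, also with 1e6 OT-1 cells, were bled on days 65, 73, 126 and 136, around EG7.OVA on day 66 and EL4 on day 127. Naive mice of matching age (n = 5), given 5e5 OT-1 cells on day 65, were bled on days 65 and 73. Tumor libraries were made from a part of the cells of each dissociated tumor, without sorting.

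A TCRβ chain is made when a V segment is joined to a D and a J segment in a developing thymocyte, with bases trimmed and added at the joints. The joint is the CDR3, which lies over the antigen peptide, so T cells with the same V segment can see unrelated antigens. Most rearrangements occur once, and a nucleotide rearrangement found many times in a mouse marks the offspring of a T cell, a clone. Chains that use Vβ6 are known from the response to the Mls-1a superantigen, which deletes such cells in the strains that carry it, and from mucosal-associated invariant T cells, many of which use Vβ6 or Vβ8. An out-of-frame joint makes no receptor and is carried by a cell whose other allele made a working one.

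The rearrangements on which the results below turn are printed 5′ to 3′ as 87-base reads, with the CDR3 in capitals from its conserved cysteine codon to the end of the read, which stops before the codon of the last CDR3 residue. In 28623 of 28623 TCRBV19 rows the capitals translated to the listed CDR3 without that residue. The opening lines show the clones with the highest share in any tumor, in any treatment blood sample and in any rechallenge blood sample.
Leading clone of 2.5e8 mouse 2 with TCRBJ02-07, tumor: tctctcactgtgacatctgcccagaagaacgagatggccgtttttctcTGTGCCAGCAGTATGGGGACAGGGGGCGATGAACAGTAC
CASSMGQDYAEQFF with TCRBJ02-01, 1e9 mouse 5 day 7 blood: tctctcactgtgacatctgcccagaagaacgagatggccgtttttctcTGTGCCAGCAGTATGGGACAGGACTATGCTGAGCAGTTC
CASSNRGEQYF with TCRBJ02-07, cured mouse 7 day 126 blood: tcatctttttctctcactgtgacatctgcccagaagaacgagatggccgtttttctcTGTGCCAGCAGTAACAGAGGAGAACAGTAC
These 3 were the leading clones of other 2.5e8 tumors.
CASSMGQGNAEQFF with TCRBJ02-01, 2.5e8 mouse 1 tumor: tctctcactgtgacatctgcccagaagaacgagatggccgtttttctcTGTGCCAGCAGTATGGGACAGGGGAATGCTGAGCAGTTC
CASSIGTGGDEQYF with TCRBJ02-07, 2.5e8 mouse 4 tumor: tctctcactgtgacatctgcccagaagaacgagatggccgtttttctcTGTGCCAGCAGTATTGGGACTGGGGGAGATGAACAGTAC
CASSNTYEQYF with TCRBJ02-07, 2.5e8 mouse 3 tumor: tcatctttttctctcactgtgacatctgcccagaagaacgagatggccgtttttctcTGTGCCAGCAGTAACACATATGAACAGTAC
The next 3 encode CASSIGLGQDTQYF with TCRBJ02-05 by different bases and were each large in the tumor of a different mouse.
Form 1, 2.5e8 mouse 5 tumor: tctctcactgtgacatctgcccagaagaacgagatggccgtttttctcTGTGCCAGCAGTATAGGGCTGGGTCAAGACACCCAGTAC
Form 2, 2.5e8 mouse 3 tumor: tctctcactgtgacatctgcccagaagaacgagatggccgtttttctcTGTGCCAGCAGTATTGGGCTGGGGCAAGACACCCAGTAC
Form 3, control mouse 5 tumor: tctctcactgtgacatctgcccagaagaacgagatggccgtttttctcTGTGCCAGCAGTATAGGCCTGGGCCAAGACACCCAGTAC
The last line is the leading form of the TCRBV19 CDR3 found in the most mice.
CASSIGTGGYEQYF with TCRBJ02-07, 3 mice: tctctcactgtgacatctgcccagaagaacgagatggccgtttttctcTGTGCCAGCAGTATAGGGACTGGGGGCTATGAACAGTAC

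Depth differed between libraries, from 482 to 23605 in-frame templates after the 2 CDR3s were left out, and the lowest totals were 482 in day 7 blood of 1e9 mouse 5 and 832 in the tumor of 1e9 mouse 2. The 2 CDR3s took 55.5% ± 23.1 (SD, n = 5) of in-frame templates in 2.5e8 tumors and 5.20% ± 2.25 (n = 5) in 2.5e8 day 7 blood. Intervals on single libraries are 95% Wilson intervals and, like the limits given for counts of 0, cover counting error only. Because the values are shares, more TCRBV19 templates and fewer templates of other V segments cannot be told apart.

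Among blood rearrangements, counted once each whatever their clone size, TCRBV19 ranked 4th of the V families. Its mean share was 7.56% ± 0.53 (SD over 66 blood libraries, which come from 27 mice), between 6.17% and 9.15%. TCRBV03 at 7.72% ± 0.60 lay just above it and TCRBV05 at 6.36% ± 0.47 just below. The gap to TCRBV03 was smaller than the spread of either family.

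On day 0 TCRBV19 held 6.98%, 6.86%, 7.40%, 7.13% and 6.92% of templates in control mice 1 to 5. In the 2.5e8 mice the day 0 shares were 8.25%, 7.74%, 8.06%, 7.75% and 7.37%, and in 1e9 mice 2 to 5 they were 7.99%, 7.06%, 7.93% and 7.50%. All 14 day 0 shares lay within 6.86% and 8.25%. The means were 7.06% ± 0.22 in control and 7.83% ± 0.34 in 2.5e8 mice (SD, n = 5 each), and 7.62% ± 0.43 in 1e9 mice (n = 4). Already on day 0, every 2.5e8 mouse except mouse 5 lay above every control mouse, and so did 1e9 mice 2, 4 and 5. These differences were not tested.

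On day 7 the control blood (mice 2 to 5) held TCRBV19 at 6.24%, 7.38%, 8.66% and 6.56%, a mean of 7.21% ± 1.08 (SD, n = 4). The 2.5e8 blood held 10.4%, 13.4%, 8.90%, 7.49% and 9.86%, a mean of 10.02% ± 2.21 (n = 5), and 4 of 5 mice were above every control mouse. The 1e9 blood held 8.77%, 5.20%, 9.34%, 10.6% and 20.5%, a mean of 10.9% ± 5.75 (n = 5). The 20.5% of 1e9 mouse 5 rests on 482 templates (Wilson interval 17.2% to 24.4%).

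In day 7 blood neither comparison with the controls passed the edgeR quasi-likelihood test on template counts over all V families. TCRBV19 had a log2 fold change of 0.48 in the 2.5e8 group against control (edgeR adjusted p = 0.105) and of 0.52 in the 1e9 group (edgeR adjusted p = 0.350), and in each of these comparisons 0% of 19 families passed at 0.05. Without adjustment, 5 and 2 families respectively had p under 0.05. The difference in mean share between 2.5e8 and control, 2.81 percentage points, had an exact two-sided permutation p of 0.0397, DESeq2 gave an adjusted p of 0.00469, and leaving out 2.5e8 mouse 4, the mouse with the lowest share, gave an edgeR adjusted p of 0.0313. Without the largest clone of each family the 2.5e8 value was 0.0868 (edgeR adjusted p = 0.605), and with each rearrangement counted once it was 0.0236 (adjusted p = 0.844). With the OT-1 and lymphoma CDR3s kept in the denominator, the 1e9 value turned to -0.92 (edgeR adjusted p = 0.00348), in a group where those 2 CDR3s took 63.6% ± 11.6 of in-frame templates, against 3.62% ± 2.64 in the controls.

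Within mice, the share was higher on day 7 than on day 0 in 4 of 5 2.5e8 mice, in 3 of 4 1e9 mice and in 1 of 4 control mice, but the mean changes of 2.19 ± 2.25 (SD, n = 5), 3.79 ± 6.64 (n = 4) and 0.13 ± 0.96 (n = 4) percentage points were close to or below their spread. The edgeR test with the mouse as block gave log2 fold changes of 0.34 (adjusted p = 0.0921), 0.42 (adjusted p = 0.141) and 0.03 (adjusted p = 0.819) in the same order. Of the V families tested, 0% of 19 passed in each dose group and 5.26% of 19 in the controls, where TCRBV02 fell. For the 2.5e8 mice the change was 0.50 with DESeq2 (adjusted p = 0.00408), 0.43 by edgeR without mouse 4 (adjusted p = 0.00983), and -0.0018 when the largest clone of each family was removed (adjusted p = 0.985). With the OT-1 and lymphoma CDR3s kept in the denominator the edgeR values were 0.63 in 2.5e8 mice (adjusted p = 0.00196), -0.63 in 1e9 mice (adjusted p = 0.183) and 0.33 in control mice (adjusted p = 0.00227). An exact permutation test of the difference between these changes gave p = 0.127 for 2.5e8 against control mice (adjusted over 5 such differences, 0.317) and exact p = 0.343 for 1e9 against control mice (adjusted 0.429).

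In tumors the TCRBV19 share spread far more than in blood. Control tumors 1 to 5 held 2.82%, 3.74%, 6.79%, 19.5% and 6.25%, with a mean of 7.82% ± 6.74 (SD, n = 5). The 2.5e8 tumors held 32.1%, 38.8%, 14.4%, 17.5% and 15.1%, with a mean of 23.6% ± 11.2 (n = 5). The 1e9 tumors held 14.6%, 5.89%, 18.6%, 9.83% and 42.5%, with a mean of 18.3% ± 14.4 (n = 5). All 5 of the 2.5e8 tumors lay above 4 of the 5 control tumors, and control mouse 4 lay within the range of the 2.5e8 group.

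**Figure D1:**
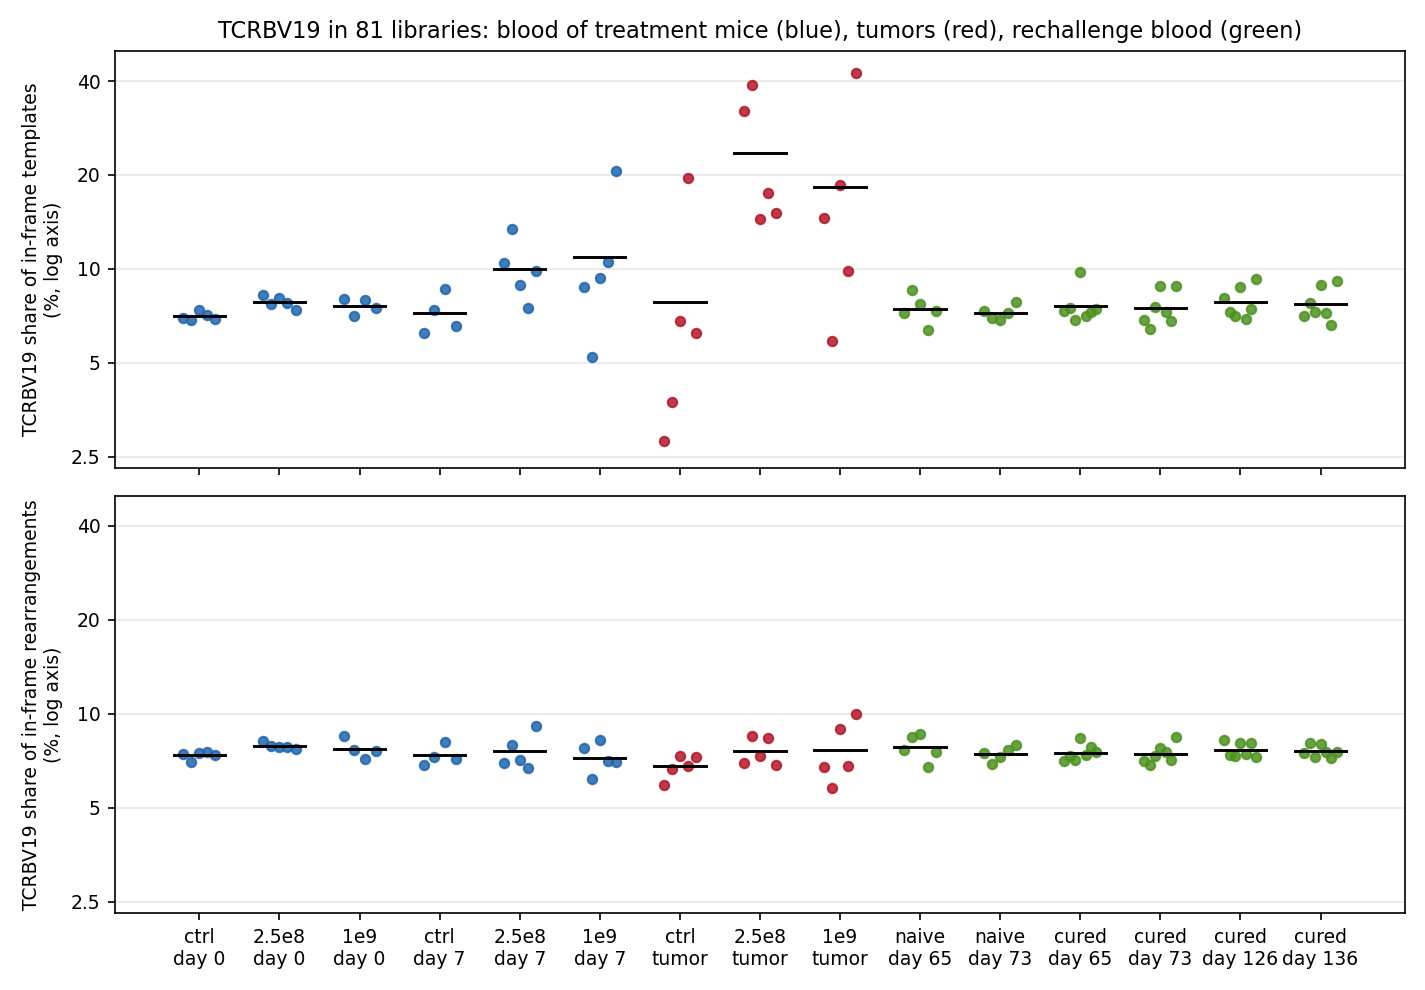
TCRBV19 share of in-frame templates (top) and of in-frame rearrangements (bottom) in each of the 81 libraries, in percent on log axes; each point is a library, the bar is the group mean, and blue, red and green mark treatment blood, tumors and rechallenge blood. Template shares spread from 2.82% to 42.5% in tumors, while rearrangement shares stay between 5.79% and 9.97% there.

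Compared with the day 7 blood of the same mice, TCRBV19 was higher in 5 of 5 2.5e8 tumors, by 13.6 ± 9.39 percentage points (mean ± SD), and the 2 sets of values did not overlap. The log2 fold change was 1.14 (edgeR with the mouse as block, adjusted p = 0.00281), and 44.4% of 18 V families passed the test. TCRBV19 was the family among these 8 that rose, and the other 7, TCRBV23, TCRBV01, TCRBV15, TCRBV16, TCRBV31, TCRBV02 and TCRBV13, fell. The number of families called was 2 with trimmed mean of M-values (TMM) factors and 3 with DESeq2, which gave TCRBV19 log2 fold changes of 1.78 (adjusted p = 6.72e-05) and 1.91 (adjusted p = 3.61e-12). The exact sign-flip p was 0.0625, the smallest that 5 mice allow. The call held without any single mouse (log2 fold change 1.02 to 1.27), was lost when the largest clone of each family was removed (0.41, adjusted p = 0.121), and turned to -0.04 when each rearrangement counted once and to -0.11 when the OT-1 and lymphoma CDR3s stayed in the denominator.

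The other tumor comparisons did not pass. In 1e9 tumors against day 7 blood TCRBV19 was higher in 4 of 5 mice, with a log2 fold change of 0.58 (edgeR adjusted p = 0.257, 0% of 18 families called), which became 1.004 with TMM factors (adjusted p = 0.0260) and 0.97 with DESeq2 (adjusted p = 0.0265). In control tumors it was higher in 1 of 4 mice, with a log2 fold change of 0.05 (edgeR adjusted p = 0.940), while 30% of 20 families passed, all 6 lower in tumor. With TMM factors this value was 0.86 (adjusted p = 0.169) and 0 families passed by edgeR, and with DESeq2 it was 0.87 (adjusted p = 0.0933) and 2 passed, so neither the value near 0 nor the 6 lower families held under another scaling. With the OT-1 and lymphoma CDR3s in the denominator these values were -0.21 in the 1e9 and -1.996 in the control mice (edgeR adjusted p = 0.574 and 0.00208). The tumor-to-blood difference was 13.6 percentage points in 2.5e8 mice and 1.86 in control mice, and this difference between groups had an exact permutation p of 0.0714 (adjusted 0.317).

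Between tumors, the log2 fold change was 1.59 for 2.5e8 against control (edgeR adjusted p = 0.133, 0% of 19 families called) and 1.23 for 1e9 against control (adjusted p = 0.158, 0% of 18). Without adjustment 3 and 4 families had p under 0.05. For 2.5e8 against control the difference in means of 15.8 percentage points had an exact permutation p of 0.0317, and DESeq2 gave an adjusted p of 0.000505. The log2 fold change was 0.45 without the largest clone of each family (edgeR adjusted p = 0.430) and 0.11 with each rearrangement counted once (adjusted p = 0.479). Control tumor 4, the control tumor with the highest share, bears on both comparisons: without it the edgeR values were 2.27 (adjusted p = 0.0123) and 1.90 (adjusted p = 0.0393). The dose groups differed by a log2 fold change of -0.36 for 1e9 against 2.5e8 (edgeR adjusted p = 0.681, 0% of 18 families called, 3 with unadjusted p under 0.05), a direction that turned to 0.43 without the largest clone of each family and to 0.0892 with each rearrangement counted once. In order of mean template share the 15 groups ran from 2.5e8 tumors and 1e9 tumors down to control day 0 blood at 7.06% ± 0.22, and no group differed from the next in that order by more than the larger of their SDs.

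The number of different TCRBV19 rearrangements did not follow the templates. TCRBV19 made up 6.80% ± 0.57 of in-frame rearrangements in control tumors, 7.61% ± 0.78 in 2.5e8 tumors and 7.66% ± 1.73 in 1e9 tumors (SD, n = 5 each), near its blood share. In 2.5e8 tumors a TCRBV19 rearrangement had 19.6 ± 13.0 templates on average, and a rearrangement of the other families 4.87 ± 1.15. In control tumors these means were 5.08 ± 3.63 and 4.72 ± 0.85, and in 1e9 tumors 9.34 ± 5.87 and 3.57 ± 1.30. Without its largest clone the TCRBV19 template share was 6.19% ± 2.29 in 2.5e8, 8.90% ± 6.03 in 1e9 and 4.70% ± 3.02 in control tumors.

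The largest TCRBV19 clone of a tumor held 36.3%, 25.4%, 14.02%, 9.90% and 6.75% of all templates in the 2.5e8 tumors of mice 2, 1, 4, 5 and 3. On day 0 the clone of mouse 2 had been seen in 22 templates and the others in 0 to 4. The clone of mouse 2, the opening sequence above, went from 0.119% of day 0 blood (22 templates, Wilson interval 0.0785% to 0.180%) to 6.86% of day 7 blood (336 templates) and 36.3% of the tumor (3250 templates, interval 35.3% to 37.3%). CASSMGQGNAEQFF of mouse 1 went from 0.0539% (4 templates) to 4.31% (158) and 25.4% (3506). The remaining 3 were not seen on day 0, which allows a share of up to 0.0305% to 0.112%, and on day 7 they held 0.883% to 2.42% of blood.

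In the 1e9 group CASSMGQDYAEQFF of mouse 5 was not seen on day 0 (up to 0.0477%), held 13.7% of the day 7 blood (66 of 482 templates, Wilson interval 10.9% to 17.1%) and 29.2% of the tumor (1131 templates). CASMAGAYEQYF of mouse 1 held 1.09% of day 7 blood and 11.4% of the tumor, and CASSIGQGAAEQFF of mouse 3 held 2.61% and 9.93%. In mice 4 and 2 the largest TCRBV19 tumor clones held 2.41% and 1.08%, the latter on 9 templates.

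In control tumors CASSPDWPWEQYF of mouse 4 held 10.8% (1646 templates) after 0.0274% of day 0 blood (2 templates) and 0.336% of day 7 blood (36 templates). The largest TCRBV19 clones of mice 2, 3 and 5 held 1.44%, 2.17% and 2.29% of the tumor and at most 0.289% of day 7 blood. Every one of the 14 clones followed in this way had a higher share in the tumor than in the blood of the same day, which their choice as the largest tumor clones favors and which was not tested.

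**Figure D2:**
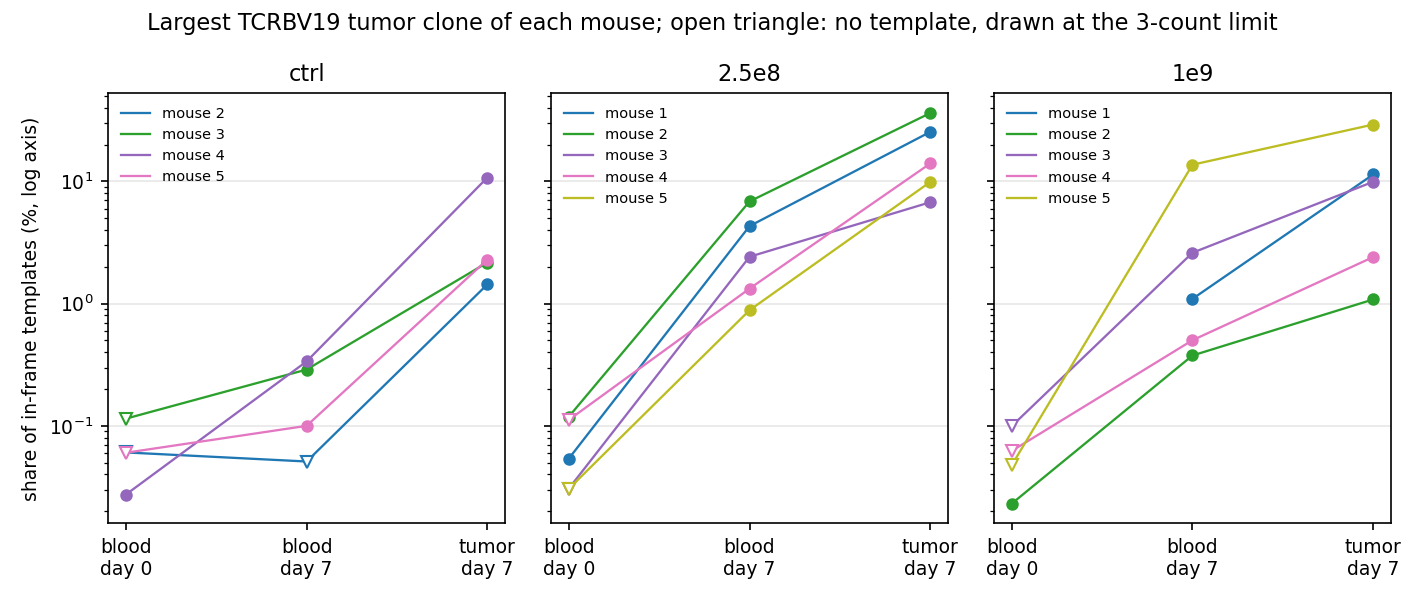
Largest TCRBV19 tumor clone of each of 14 mice, as a percent of in-frame templates (log axis) in day 0 blood, day 7 blood and day 7 tumor; each line is a mouse, and an open triangle marks no template, drawn at the 3-count limit. In day 7 blood the lines of the dose groups lie at 0.376% to 13.7% and those of the control group at no more than 0.336%. The 0.376% of 1e9 mouse 2 rests on 6 templates. Its Wilson interval (0.173% to 0.818%) overlaps that of the 0.336% in control mouse 4 (0.243% to 0.465%). The clones were chosen by their tumor share, and the groups were not tested against each other.

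Clones of at least 0.5% of a tumor library numbered 41, in 14 of 15 tumors. This line was drawn after the values had been seen; the smallest clone inside it held 0.538% and the largest outside 0.499%. There were 8 in 4 control tumors, 14 in 5 of the 2.5e8 tumors and 19 in 5 of the 1e9 tumors, none being in control tumor 1. Of the 41, 39 were also seen in the day 7 blood of the same mouse, and 9 of the 40 with a day 0 sample were seen there.

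Their CDR3s shared features that the choice by size did not use, although the pattern was picked out after the sequences had been read and was not tested. Counting residues from the conserved cysteine as 1, 32 of 41 had a CDR3 of 14 residues. Of these, 24 began with CASS and had glycine at residue 6, and 16 had glycine at residue 8 as well, as in the leading clone of 2.5e8 mouse 2, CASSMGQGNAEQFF and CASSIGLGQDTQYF above. The double-glycine shape was found in 9 of 14 clones and in all 5 tumors of the 2.5e8 group. It was found in 4 of 8 clones and 3 tumors of the control group, and in 3 of 19 clones and 2 tumors of the 1e9 group. All 16 used TCRBJ02-01, TCRBJ02-05 or TCRBJ02-07, and residue 5 was isoleucine in 9, methionine in 3 and another residue in 4. Among all 41 clones these J segments were also the usual ones, used by 12, 10 and 9 in that order. In blood, isoleucine followed CASS in 37.2% of TCRBV19 rearrangements and methionine in 7.68%. In day 0 blood, 14-residue CDR3s with CASS and glycine at residue 6 held 8.11% to 9.95% of TCRBV19 templates on average. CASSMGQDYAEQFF and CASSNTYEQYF, the largest clones of 1e9 mouse 5 and 2.5e8 mouse 3, lack the shape. Among 248 clones of the same size in other V families, 11 (4.44%) had it, and 6 of these used TCRBV17. That family made up 1.56% ± 0.24 of blood rearrangements. Its clones of this size were not counted, so the shape cannot be called particular to TCRBV19.

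As a share of all TCRBV19 templates, the double-glycine shape held 3.18% ± 1.24 of 2.5e8 day 0 blood and 28.3% ± 21.3 of 2.5e8 day 7 blood. In 1e9 blood it held 4.35% ± 2.14 on day 0 and 11.03% ± 12.6 on day 7. In the 2.5e8 tumors it held 91.3%, 94.6%, 10.3%, 84.3% and 67.4%. The shape was picked from the largest clones of these same tumors, so high values there are favored by that choice. Single clones carry most of them. The day 7 blood of these mice held the same clones, so high values in that blood are favored as well. In 2.5e8 mice 1, 2, 4 and 5 the shape held 4.93%, 7.24%, 1.67% and 1.13% of the day 7 blood library. The leading tumor clone alone held 4.31%, 6.86%, 1.33% and 0.883% of it. In the tumors of mice 1, 2, 4 and 5 the shape held 29.3%, 36.8%, 14.8% and 10.2% of the library. The leading TCRBV19 clone alone held 25.4%, 36.3%, 14.02% and 9.90%. In mouse 3 the leading clone lacks the shape. The control tumors held 0.64%, 48.6%, 11.6%, 7.74% and 46.1%, and the 1e9 tumors 2.31%, 8.16%, 55.6%, 1.20% and 11.5%, so the groups overlapped. In control day 7 blood the share was 4.49% ± 1.32 and in the rechallenge blood groups 3.71% to 6.88% on average. The remaining TCRBV19 templates of 2.5e8 tumors came to 5.09% ± 4.51 of the library, against 6.91% ± 1.51 in the day 7 blood of these mice. Single tumors ranged from 2.09% to 12.9%, the highest being mouse 3, which had 8.34% in day 7 blood. Leaving out a shape picked from leading tumor clones favors a low tumor value, so the comparison does not show what carried the rise.

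Counted once each, rearrangements with the shape were 15.4% ± 9.69 of TCRBV19 rearrangements in 2.5e8 tumors, 10.5% ± 5.27 in 1e9 tumors, 4.55% ± 3.25 in control tumors and 2.66% to 4.07% on average in day 0 blood. The large clones from which the shape was picked are among the tumor rearrangements counted here. Rows may be copies of a clone of their own V family if they share its CDR3 bases and are no larger. The same holds if they lie within 1 base of a clone of that family at least 20 times as large. Rows with the CDR3 bases of a clone of another V family at least 20 times as large may be copies as well. Without such rows, a setting chosen after seeing the data, the means were 10.004% ± 5.64 in 2.5e8, 9.65% ± 4.41 in 1e9 and 4.25% ± 2.67 in control tumors.

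**Figure D3:**
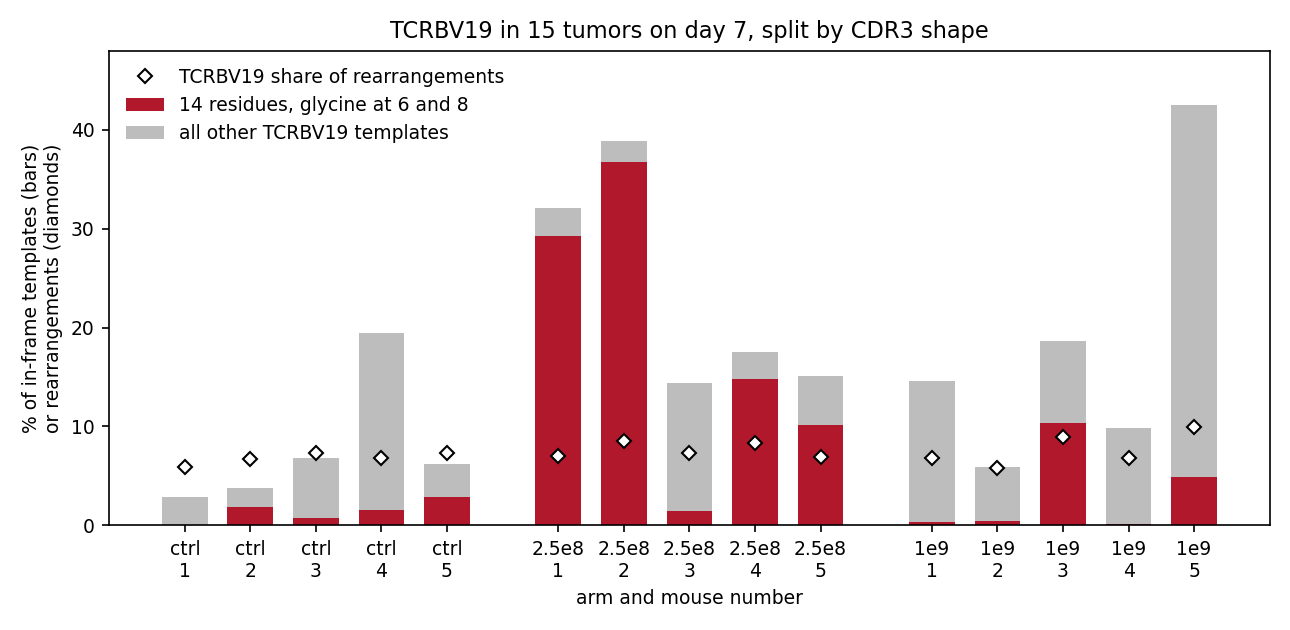
TCRBV19 in the 15 tumors, by group and mouse number. Bars give the percent of in-frame templates, red for 14-residue CDR3s with glycine at residues 6 and 8 and grey for all other TCRBV19 templates; diamonds give the percent of in-frame rearrangements. Red makes up most of the bar in 4 of the 5 2.5e8 tumors and in 1 of the 5 1e9 tumors, and the diamonds stay between 5.79% and 9.97%.

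Some CDR3s were large in more than 1 tumor, each time in another nucleotide form. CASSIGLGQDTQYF was at least 0.5% of 3 tumors, with 666 templates (9.90%) in 2.5e8 mouse 5, 82 (0.650%) in 2.5e8 mouse 3 and 65 (0.550%) in control mouse 5. The 3 forms printed above differ from each other at 2 or 3 of 87 bases and encode the same residues. This CDR3 was seen in 7 mice and 15 libraries. Of its 10 nucleotide forms, 3 had the CDR3 bases of form 1 or form 2 in the same library and may be copies of them. Form 1 was also found in the tumor of control mouse 4 (13 templates), and form 4 was found in 3 mice. The same bases were thus counted in more than 1 mouse, and carry-over between libraries was not tested. In cured mouse 7, a further form was present at all 4 samplings, with 4, 3, 5 and 2 templates on days 65, 73, 126 and 136.

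The CDR3 of the leading clone of 2.5e8 mouse 2 also held 3.49% (135 templates) of the tumor of 1e9 mouse 5, by a form 1 base away. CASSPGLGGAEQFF held 1.44% (165 templates) and 1.07% (163 templates) of the tumors of control mice 2 and 4, by forms 2 bases apart. In 2.5e8 mouse 1, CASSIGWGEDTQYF was carried by 2 forms in the same tumor, at 1.39% (192 templates) and 1.04% (143 templates). Each of the other CDR3s at this size was large in a single tumor.

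Across all libraries TCRBV19 CDR3s were mostly private. Of 22415 different CDR3s, 19664 (87.7%) were found in 1 mouse and 7 in at least 10 mice. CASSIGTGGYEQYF, which has the double-glycine shape, was found in 15 of 27 mice and 20 libraries, in 15 nucleotide forms and only 40 templates, at no more than 0.0806% of a library. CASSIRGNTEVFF with TCRBJ01-01 followed in 12 mice with 17 templates, and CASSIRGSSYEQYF with TCRBJ02-07 was in 11 mice with 23 templates. The most widely shared CDR3 was thus rare in every library that held it.

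Rearrangements whose share changed between 2 blood samples of a mouse were called by Fisher's exact test, which compares 2 libraries and not conditions. Rearrangements with at least 5 templates in the pair were tested, which leaves out nearly all of the family. From day 0 to day 7, 4 of 10 TCRBV19 clones tested in control mice were higher, where 32.1% of all 106 clones tested were. In 2.5e8 mice 12 of 16 were higher, in all 5 mice, where 61.2% of all 196 were, and in 1e9 mice 15 of 19, in 4 mice, where 61% of all 177 were. The largest of these in each group were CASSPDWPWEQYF, the leading clone of 2.5e8 mouse 2 and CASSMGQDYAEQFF, described above. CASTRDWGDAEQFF of 1e9 mouse 4 was already 0.810% of day 0 blood (39 templates), rose to 2.96% on day 7 (195 templates) and held 0.637% of the tumor (27 templates), so a clone that was high in blood was lower in the tumor there.

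In the cured mice of the rechallenge experiment the TCRBV19 share had its lowest, median and highest values at 6.84%, 7.31% and 9.78% on day 65, 6.40%, 7.31% and 8.82% on day 73, 6.92%, 7.42% and 9.27% on day 126, and 6.63%, 7.29% and 9.17% on day 136. Naive mice had 7.25%, 8.55%, 7.69%, 6.36% and 7.35% on day 65 and 7.35%, 6.95%, 6.87%, 7.22% and 7.82% on day 73. Apart from 6.36% in naive mouse 4 on day 65, the naive values lay within the range of the cured mice of the same day.

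TCRBV19 was not called in any rechallenge comparison with the OT-1 and lymphoma CDR3s left out. Cured against naive mice gave log2 fold changes of 0.03 before EG7.OVA (edgeR adjusted p = 0.891) and 0.05 after it (adjusted p = 0.784), with 0% of 20 families called each time and 4 and 5 families with unadjusted p under 0.05. With the mouse as block, the changes in cured mice were -0.02 around EG7.OVA (edgeR adjusted p = 0.920, 5% of 20 families called), 0.06 from day 73 to day 126 (adjusted p = 0.657, 0% of 20) and -0.02 around EL4 (adjusted p = 0.987, 0% of 21), and in naive mice -0.03 (adjusted p = 0.837, 16.7% of 18). With those CDR3s kept in the denominator, 3 of these comparisons passed: cured against naive after EG7.OVA at -0.36 (edgeR adjusted p = 0.0468), cured mice around EG7.OVA at -0.41 (adjusted p = 0.0199) and from day 73 to day 126 at 0.37 (adjusted p = 0.0122). The change around EG7.OVA was -0.10 ± 0.91 percentage points in cured and -0.20 ± 1.00 in naive mice (SD, n = 7 and 5), and the difference between them had an exact permutation p of 0.857.

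Single TCRBV19 clones were followed as well. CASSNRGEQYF of cured mouse 7, printed above, held 0.0917% of day 65 blood (11 templates, Wilson interval 0.0512% to 0.164%), 0.490% of day 73 (23), 2.50% of day 126 (274, interval 2.22% to 2.81%) and 1.75% of day 136 (160). It was the TCRBV19 rearrangement with the most templates among those seen at all 4 samplings of a mouse, and its share was highest on day 126, before EL4. In the 7 cured mice, 10 of 15391 TCRBV19 rearrangements were seen at all 4 samplings, 5 of them in mouse 4 and 3 in mouse 7, and 130 were seen at 2 or more.

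Around EG7.OVA, 5 of 15 TCRBV19 clones tested in cured mice were higher after the challenge, in 3 mice, where 26.4% of all 193 clones tested were, and the largest later share was the 0.722% of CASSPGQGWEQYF in mouse 4 (36 templates before and 46 after). In naive mice 1 of 4 was higher, where 15.7% of all 51 were: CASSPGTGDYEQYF of mouse 2, with 0 templates before and 13 after. Around EL4, 2 of 26 were higher, both in cured mouse 4, where 8.36% of all 383 were, and the larger was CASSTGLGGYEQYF, with 15 templates before and 50 after. These shares of clones called lie near those of all clones tested.

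Joining of TCRBV19 to J segments was measured in blood rearrangements, each counted once, over 27 mice. TCRBJ02-07 was its most frequent partner, at 17.5% ± 2.20 of TCRBV19 rearrangements (SD, n = 27 mice), as it was in the other V families at 19.03% ± 0.46. The largest departure was TCRBJ01-06, with 4.63% ± 0.97 in TCRBV19 against 2.98% ± 0.25 in the other families, a log2 ratio of 0.63 ± 0.27 that was above 0 in 27 of 27 mice (permutation p = 1e-05, the smallest that 100000 sign flips can give, adjusted 4e-05). In all, 66.7% of 12 J segments passed. TCRBJ01-01, TCRBJ01-03 and TCRBJ01-04 were also more frequent (log2 ratios 0.18, 0.24 and 0.18), and TCRBJ01-02, TCRBJ01-05, TCRBJ02-05 and TCRBJ02-07 were less frequent (-0.36, -0.28, -0.12 and -0.12). TCRBJ02-01, TCRBJ02-02, TCRBJ02-03 and TCRBJ02-04 did not pass.

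Among out-of-frame TCRBV19 joints TCRBJ02-01 alone passed, with a log2 ratio of 0.20, and TCRBJ01-06 stood at -0.0034 (permutation test, adjusted p = 0.966). The in-frame and out-of-frame values were not tested against each other. In tumors, TCRBJ02-07 held 48.8% ± 41.5 of TCRBV19 templates in the 2.5e8 group, ranging over single tumors from 3.21% to 94.8%. It held 28.9% ± 20.9 in control tumors, 31.3% ± 30.3 in 1e9 tumors and 37.4% ± 19.4 in 2.5e8 day 7 blood, so these groups overlapped.

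**Figure D4:**
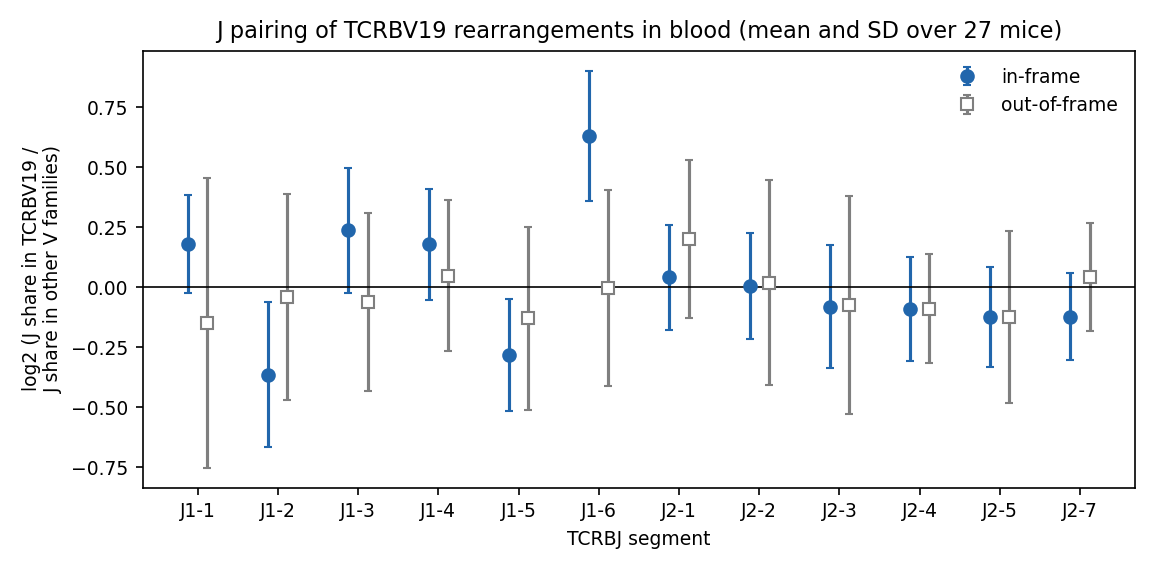
Log2 ratio of each J segment's share in TCRBV19 to its share in all other V families, in blood rearrangements; circles are in-frame and squares out-of-frame, with the mean and SD over 27 mice. The in-frame mean of J1-6 is the highest at 0.63, where the out-of-frame mean is -0.0034.

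The CDR3 of TCRBV19 was slightly shorter than that of other families. It averaged 13.77 ± 0.06 residues in blood rearrangements against 13.90 in all others, a difference of -0.13 ± 0.06 residues (SD, n = 27 mice) that was below 0 in 26 of 27 mice (permutation adjusted p = 1.5e-05). Of 21 families, 85.7% passed, and TCRBV19 ranked 13th from the longest, so most families departed further. The difference in median length was 0. CDR3s of 14 residues made up 33.8% ± 2.08 of TCRBV19 rearrangements and 30.6% ± 0.60 of the others, while lengths of 15 and 16 residues were less frequent (19.96% and 6.53% against 21.9% and 8.75%).

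At the joint, TCRBV19 rearrangements had lost 3.12 ± 0.12 bases of the V segment and gained 3.61 ± 0.08 inserted bases on average, where the other families had lost 2.58 ± 0.03 and gained 3.40 ± 0.04 (SD, n = 27 mice). The CDR3 began with CASS in 82.7% ± 1.82 of rearrangements, and the next residue was isoleucine in 37.2% ± 2.21, proline in 9.60% ± 1.35, methionine in 7.68% ± 1.02 and arginine in 7.09% ± 0.82. In 2.5e8 mice the 14-residue share of TCRBV19 templates was 49.2% ± 16.1 in day 7 blood and 80.5% ± 23.7 in tumors, higher in tumor in 5 of 5 mice (exact sign-flip p = 0.0625, the smallest possible). In control mice it was 33.9% ± 1.91 and 50.2% ± 23.7, higher in 3 of 4 (exact p = 0.25), and in 1e9 mice 53.7% ± 24.2 and 55.97% ± 30.4, higher in 2 of 5 (exact p = 0.875). These changes were not tested against each other. A length of 14 residues is part of the shape picked from the largest clones of these tumors, which favors a high tumor share. Mean length over templates changed from blood to tumor by -0.04 ± 0.28 residues in 2.5e8 mice, higher in 3 of 5 (exact sign-flip p = 0.938). This change was -0.05 ± 0.39 in control and -0.21 ± 0.74 in 1e9 mice. Over rearrangements it was 0.16 ± 0.17 in 2.5e8 mice, higher in 4 of 5 (exact p = 0.125).

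In-frame and out-of-frame rearrangements of blood were compared because only the in-frame ones can be kept or lost with the receptor they encode. TCRBV19 made up 7.60% ± 0.29 of in-frame and 6.98% ± 0.51 of out-of-frame rearrangements (SD, n = 27 mice), a log2 ratio of 0.12 ± 0.11 that was above 0 in 25 of 27 mice (permutation adjusted p = 1.5e-05). Of 22 families, 86.4% departed from 0, and TCRBV19 ranked 10th, between TCRBV03 at 0.47 and TCRBV22 at -2.30. In tumors the ratio was -0.04 (adjusted p = 0.654).

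**Figure D5:**
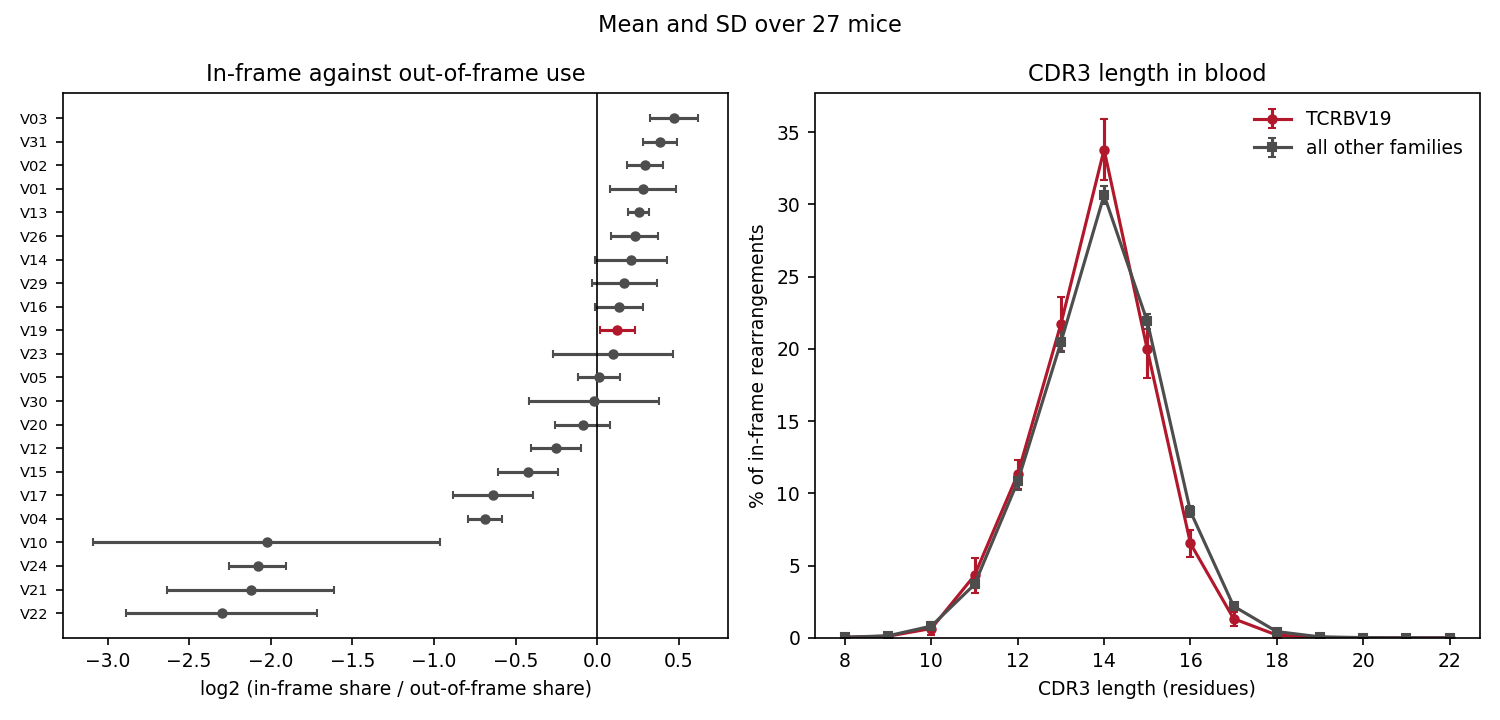
Left, log2 ratio of in-frame to out-of-frame share for 22 V families in blood, TCRBV19 in red; right, CDR3 length in residues of TCRBV19 (red) and all other families (grey) as a percent of in-frame rearrangements; points and bars are the mean and SD over 27 mice. TCRBV19 lies at 0.12 on the left and peaks at 14 residues with 33.8% on the right.

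No V family closely followed TCRBV19 across libraries. The highest Spearman correlations of template share over the 81 libraries were 0.26 with TCRBV17, 0.12 with TCRBV05 and 0.11 with TCRBV29, and in the 66 blood libraries these were 0.15, 0.07 and 0.17. The points share mice and the denominator, so these values are a description.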

How the data were processed

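TCRβ CDR3 regions were sequenced from genomic DNA of blood and dissociated tumors with the immunoSEQ assay (Adaptive Biotechnologies), a multiplex PCR corrected for primer bias. Each deposited table gives template counts per nucleotide rearrangement as processed with immunoSEQ Analyzer 3.0 for the authors: sequences collapsed and filtered, V, D and J segments assigned, and no normalization applied. The genome build is not given in the sources used here, so no coordinates are printed. Lengths, deletions and insertions were deposited as other whole numbers of bases per rearrangement.

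Groups came from the sample labels. Mice were tied across samplings by the animal code in the labels; between groups, same-numbered mice were different animals, and correlations of their deviations over 22 V families ran from -0.52 to 0.53. One label of cured mouse 2 on day 73 names mouse 1 in its wording, and the animal code was followed. Each mouse was taken as 1 replicate, with 1 library per sampling.

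Templates were summed per V family without the OT-1 and lymphoma CDR3s and tested with edgeR 4.0.16 in R 4.3.3 (quasi-likelihood, filterByExpr, no normalization factors, Benjamini-Hochberg over families, threshold 0.05), over the libraries of the groups compared, with the mouse as block within mice. In-frame against out-of-frame use, J pairing and length were tested by two-sided sign-flip permutation over mice (100000 resamples, 0.5 added to counts, families or J segments with at least 100 in-frame rearrangements). Clones with at least 5 templates in 2 libraries were tested by Fisher's exact test, adjusted within the mouse. Means of small groups were compared by exact permutation (scipy 1.17.1). Scripts were tested on simulated data. Alternatives were DESeq2 1.42.0, trimmed mean of M-values factors, other denominators, filters, clone-size settings, subsampling, blocks and leaving out each mouse.

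The V family, its lists and its rules were chosen with earlier results of these data known. Named beside TCRBV19 were the 3 families most like it by Spearman correlation, its neighbours in blood share, the highest and lowest in-frame to out-of-frame family, families called in a comparison, the largest TCRBV19 clones of each tumor and of 3 sample sets, the CDR3s in most mice, the largest later clone called in each pair, the rearrangement in most libraries of a mouse, and every J segment past the threshold.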

Additional observations from a re-analysis of the deposited data

Results flagged for a closer look

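Of 60 sets of a group and a measure, 9 held a sample far from the others of its group, and chance flags about 1 in 20. The TCRBV19 template share was 19.5% in the tumor of control mouse 4, where the other control tumors held 2.82% to 6.79%, and 9.78% in cured mouse 4 on day 65, where the other cured mice held 6.84% to 7.49%. The share of rearrangements was 7.02% in day 0 blood of control mouse 2, against 7.40% to 7.54% in the other control mice. The double-glycine shape held 55.6% of TCRBV19 templates in the tumor of 1e9 mouse 3 (others 1.20% to 11.5%), 10.9% in cured mouse 4 on day 65 (others 3.03% to 5.59%), 10.3% in cured mouse 4 on day 136 (others 3.26% to 6.04%) and 5.78% in naive mouse 2 on day 73 (others 3.12% to 3.82%). The mean CDR3 length of TCRBV19 rearrangements was 13.66 residues in cured mouse 4 on day 136 (others 13.73 to 13.78) and 13.64 in day 7 blood of 2.5e8 mouse 2 (others 13.83 to 13.90). Cured mouse 4 accounts for 4 of the 9.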

How the results depend on the processing

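For 44 results, 343 alternatives were run: 257 kept the direction and the side of the threshold, 45 reversed, 19 newly passed, 16 no longer passed and 6 counts moved. Values are log2 fold changes for TCRBV19 with edgeR unless stated, and the causes were not tested beyond what each setting changes by construction. Depth limits single libraries, the lowest being 482 templates, and intervals on 1 library cover counting error only.

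With all in-frame templates as denominator, OT-1 and lymphoma CDR3s included, the values were -0.92 (1e9 against control, day 7 blood), 2.55 (2.5e8 against control, tumor), -0.36 (cured against naive after EG7.OVA), 0.33, 0.63 and -0.63 (day 7 against day 0 in control, 2.5e8 and 1e9 mice), -1.996, -0.106 and -0.211 (tumor against day 7 blood, same order), -0.41, 0.37 and 0.0115 (cured mice around EG7.OVA, day 73 to 126 and around EL4) and 0.12 (naive mice), and 2 clones were called higher in cured mice after EG7.OVA. Of these, -0.92, 2.55, -0.36, 0.33, 0.63, -1.996, -0.41 and 0.37 passed at 0.05. With each rearrangement counted once they were 0.0892 (1e9 against 2.5e8, tumor), -0.0401 and -0.00853 (cured against naive, before and after EG7.OVA), -0.0436 and -0.0914 (day 7 against day 0, 2.5e8 and 1e9) and -0.0900 and -0.0441 (tumor against day 7 blood, control and 2.5e8). Without the largest clone of each family they were 0.43 (1e9 against 2.5e8, tumor), -0.0018 (2.5e8, day 7 against day 0), 0.41 (2.5e8, tumor against day 7 blood) and 0.00067, -0.0127 and 0.00934 (cured mice, as above).

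DESeq2 gave 0.64 and 1.87 (2.5e8 against control, day 7 blood and tumor), 0.50 (2.5e8, day 7 against day 0), 0.97 (1e9, tumor against day 7 blood) and 0.0187 (cured around EG7.OVA), and trimmed mean of M-values factors gave 1.004 and 0.0164 for the last 2. For tumor against day 7 blood, families called numbered 8 in 2.5e8 mice (2 with these factors, 3 with DESeq2) and 6 in control mice (0 and 2). The exact permutation test gave differences of 2.81 and 15.8 percentage points (2.5e8 against control, day 7 blood and tumor). Subsampled to the smallest library the values were -0.0237 (cured against naive before EG7.OVA), -0.0581 (control, day 7 against day 0), 0.0152 (cured around EL4) and 0.0425 (naive), and without rearrangements of 1 template -0.0367 (cured, day 73 to 126), 0.0255 (cured around EL4) and 0.0246 (naive). Without cured mouse 2 the change around EG7.OVA was 0.0136.

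Leaving out each mouse gave 0.25 to 0.67 and 0.34 to 0.58 (day 7 blood, 1e9 and 2.5e8 against control), 0.65 to 1.90 and 1.34 to 2.27 (tumor, same order), -0.94 to -0.11 (tumor, 1e9 against 2.5e8), -0.0156 to 0.0891 and 0.03 to 0.08 (cured against naive, before and after), -0.0752 to 0.0824, 0.22 to 0.43 and 0.09 to 0.74 (day 7 against day 0, control, 2.5e8, 1e9), -0.31 to 0.32, 1.02 to 1.27 and 0.46 to 0.75 (tumor against day 7 blood, same order) and -0.0772 to 0.0415 (naive). Without 2.5e8 mouse 4, day 7 blood passed against control (0.57) and against day 0 (0.43), and without control mouse 4 both tumor comparisons passed (1.90 and 2.27). The sign turned without naive mouse 4 (cured against naive before EG7.OVA), control mouse 4 (control, day 7 against day 0 and tumor against day 7) and naive mouse 2 (naive mice). The 2.5e8 tumor call against day 7 blood held in all 5 of these fits.

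With the replicate number as a block, the replicate block fits between groups gave 0.49 and 0.44 (day 7 blood, 1e9 and 2.5e8 against control), 1.30, 1.81 and -0.56 (tumor, 1e9 and 2.5e8 against control and 1e9 against 2.5e8) and 0.05 and 0.02 (cured against naive), and with no replicate block the fits within mice kept every call.

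In tumors the in-frame to out-of-frame log2 ratio was -0.0389 and the length difference -0.0370 residues, and the median length difference in blood was 0. J log2 ratios reversed to -0.148, -0.0614, -0.0034 and 0.0425 for TCRBJ01-01, TCRBJ01-03, TCRBJ01-06 and TCRBJ02-07 in out-of-frame rearrangements, to -0.42, -0.00935, -0.0202, 0.28 and 0.0175 for TCRBJ01-04, TCRBJ02-01, TCRBJ02-02, TCRBJ02-03 and TCRBJ02-04 in tumors, and to -0.0856 for TCRBJ02-02 with templates. Of J segments 8 passed in blood, 1 in out-of-frame rearrangements and 1 in tumors. Clones called higher in cured mice after EG7.OVA numbered 3 where 10 templates were required, and 2 at the stricter threshold of 0.01, which called 0 after EL4 by Fisher's exact test.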
